A study of Homo sapiens with 29 samples.

Results

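The TAM receptors and their ligands are 5 genes, the receptor tyrosine kinases AXL, TYRO3 and MERTK and the secreted proteins GAS6 and PROS1, and their transcript levels were followed through 29 RNA-seq libraries of the PC9 lung adenocarcinoma line. The 5 members were taken by name, by a rule that uses no measured value, out of 35579 genes to which the transcripts of the deposited table could be summed. All 5 were among the 14111 genes whose mean over the 29 libraries reached 1 TPM, the minimum for testing. TPM scales each library to one total and divides reads by transcript length, so levels of different genes can be set side by side.

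TAM receptors sit in the plasma membrane and are switched on by GAS6, which binds all 3 of them, or by PROS1 (protein S), which acts on TYRO3 and MERTK. Both ligands carry a vitamin K-dependent domain that binds phosphatidylserine on the surface of dying cells, so that the ligand bridges a dying cell to the receptor. In EGFR-mutant lung cancer AXL is known as a bypass receptor that lets cells survive inhibition of EGFR.

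PC9 carries an activating EGFR mutation and is sensitive to erlotinib, an EGFR kinase inhibitor. The 10 lines were parental cells (PAR), cells in which AXL had been cut in its kinase domain with CRISPR/Cas9 (KO), and 8 lines made from knockout cells by lentiviral transduction of AXL. The transduced receptor was wild type (WT), kinase dead (KD) or changed from tyrosine to phenylalanine at 1 of 6 residues (Y634F, Y643F, Y698F, Y726F, Y750F and Y821F). Each line was left untreated (UT) or treated for 24 h with erlotinib (E) or with erlotinib and AF154, an antibody that activates AXL (EA). There were 10 UT, 10 E and 9 EA libraries, 1 for each line and treatment, and the knockout line under EA is not analysed here. The transduced lines were sorted populations, not clones, and the study's supplement describes most of their cells as AXL-negative. Each comparison of KO with them therefore sets KO against lines that were largely knockout cells. A treatment was replicated over lines only, and since the 8 transduced lines share their knockout parent and no line was grown again, the p-values measure the spread between these lines. In bulk RNA, fewer cells with a transcript and less of it in each cell cannot be told apart.

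The epithelial markers EPCAM, KRT7, KRT8, KRT18, KRT19 and CDH1 together held 8155 to 11180 TPM, whereas NKX2-1, which marks most lung adenocarcinomas, lay between 0 and 0.35 TPM. Of the markers of other cells, CD3E was listed at 0 in all 29 libraries, PTPRC reached 1.003 TPM at most and COL1A2 0.34 TPM. Other markers of the same lists were not at 0. COL1A1 was 15.3 to 36.0 TPM untreated and 36.4 to 59.9 TPM with E, ITGAM 5.51 to 17.2 TPM and 19.2 to 41.5 TPM, and CSF1R 2.67 to 6.66 TPM and 8.07 to 15.3 TPM. Each was higher with E without overlap, as were 12.6% of all genes tested. CD68 was 34.1 to 68.1 TPM untreated and 27.8 to 44.9 TPM with E. The 5 fibroblast markers together held 16.2 to 36.6 TPM untreated and 37.9 to 62.6 TPM with E, and the 5 leukocyte markers 50.9 to 83.9 TPM and 67.9 to 90.1 TPM. The 3 endothelial markers together held 5.45 to 10.2 TPM untreated and 2.05 to 6.805 TPM with E. The part of other cells in the changes with E was not tested. The mitochondrial share of TPM ranged from 11.4% to 17.4%, and in PAR it was 14.4% untreated and 17.4% with E, the highest of the E libraries, where the other lines had 12.3% to 14.2%. Its part in the differences of PAR described below was not tested.

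The 6 substituted tyrosines define most of the lines, so the reference sequence around each codon is shown with the tyrosine codon in capitals. It was read from the AXL-201 transcript of GENCODE 29 on the plus strand of chromosome 19 of GRCh38, and codons are counted from the start codon.

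Y634F, exon 16, codon at chr19:41252941-41252943: agcttcctcctcTATtcccggctcggg
Y643F, exon 17, codon at chr19:41253599-41253601: gaccagccagtgTACctgcccactcag
Y698F, exon 18, codon at chr19:41256507-41256509: tccaagaagatcTACaatggggactac
Y726F, exon 18, codon at chr19:41256591-41256593: gctgaccgtgtcTACaccagcaagagc
Y750F, exon 19, codon at chr19:41257544-41257546: ggccaaaccccaTATccgggcgtggag
Y821F, exon 20, codon at chr19:41259680-41259682: gacgaaatcctcTATgtcaacatggat

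All 6 codons were tyrosine codons in the reference. Each of these windows is also present in AXL-202 and AXL-203, the other protein-coding AXL transcripts, so an estimate summed over the gene does not separate the mutant cDNA from the transcript of the knockout locus.

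AXL (ENSG00000167601, chr19:41219203-41261766, plus strand) was the most abundant member by a wide margin, at 432.5 TPM averaged over the 29 libraries, against 56.0 TPM for GAS6, 15.2 TPM for TYRO3, 2.22 TPM for PROS1 and 2.21 TPM for MERTK. Among the 35579 genes AXL ranked 257th by mean TPM, GAS6 2763rd, TYRO3 7630th, PROS1 12640th and MERTK 12658th. Of the 29 libraries, 24 were of lines transduced with AXL, so the mean, rank and shares of AXL include the vector's transcript. Without a vector AXL was 232 to 351 TPM in PAR and 79.3 to 92.4 TPM in KO. AXL held 82.3% of the TPM of the 3 receptors in untreated KO cells and 91.0% to 95.3% in the other untreated lines. GAS6 held 95.3% to 99.6% of the TPM of both ligands in the untreated lines. Over the 29 libraries the ranges followed each other without overlap, from AXL (at least 79.3 TPM) to GAS6 (30.6 to 76.1 TPM), TYRO3 (8.39 to 23.1 TPM) and the pair of MERTK and PROS1 (at most 4.14 TPM). PROS1 and MERTK overlapped.

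**Figure D1:**
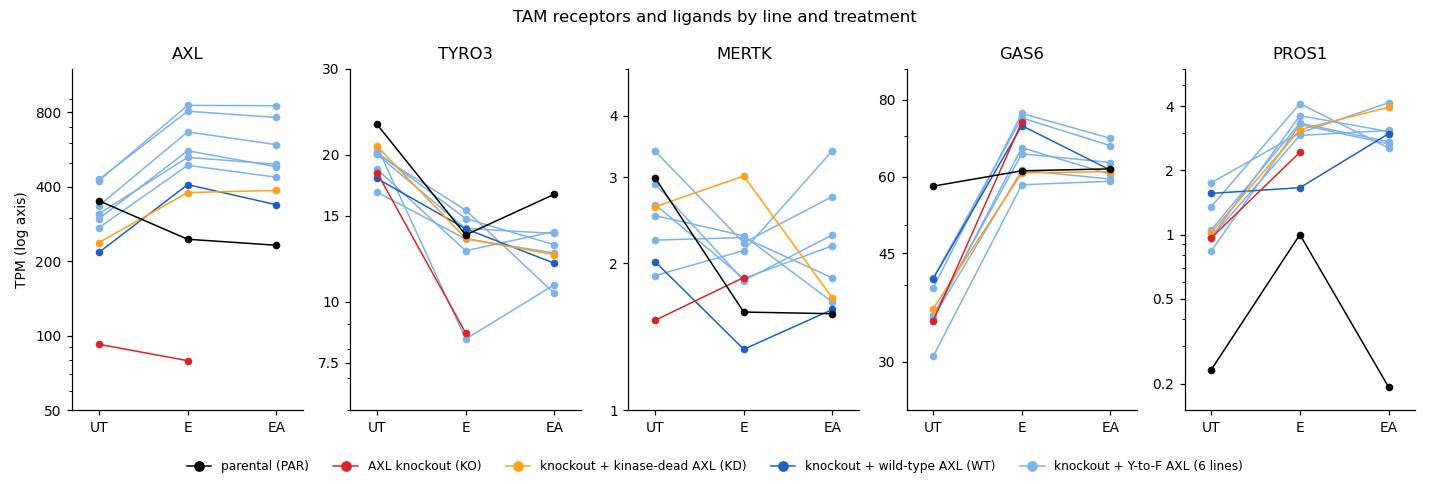
TPM on a log axis for each member in untreated (UT), erlotinib (E) and erlotinib plus AF154 (EA) libraries, 1 point per library, with the points of a line joined. AXL rises with E in the 8 transduced lines and is lower with E in PAR (351 to 245 TPM) and KO (92.4 to 79.3 TPM). TYRO3 falls and GAS6 and PROS1 rise with E. PAR stands above the other lines in untreated GAS6 and below them in PROS1.

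The first comparison asked what 24 h of erlotinib did to the members. Of the 5, GAS6 and PROS1 rose, TYRO3 fell and MERTK did not pass the test. AXL was called higher over the 10 lines, but it rose only in the 8 transduced with AXL and was lower in PAR and KO. So 4 of 5 were called, in a comparison that called 71.8% of all genes tested (35.5% higher and 36.3% lower). Differences are given on the log2(TPM + 1) scale and tested with limma, blocked on the line, with Benjamini-Hochberg adjustment over the 14111 genes.

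AXL moved in opposite directions in different lines. In the 8 transduced lines untreated AXL lay between 217 and 428 TPM with a median of 303.6 TPM, and with E between 379 and 852 TPM with a median of 542 TPM. Every transduced line was higher with E, by 1.59 to 2.01 times, from 217 to 408 TPM in WT, from 238 to 379 TPM in KD and from 423 to 852 TPM in Y750F. In PAR, AXL was 351 TPM untreated and 245 TPM with E, and in KO it was 92.4 and 79.3 TPM. Over the 10 lines the mean change was 0.63 ± 0.14 (SE, limma adjusted p = 0.00142), with 8 lines higher and 2 lower, and in the 8 transduced lines alone it was 0.87 ± 0.038 (SE, limma adjusted p = 3.38e-09). Of the 14111 genes, 47 or 0.333% moved one way with E in all 8 transduced lines and the other way in both PAR and KO. The pattern counted was that of AXL, which is among the 47, so this share is a description only. Without the line as a block the mean change of AXL was no longer called (limma adjusted p = 0.106).

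The change of AXL with E was tested between lines as well, on the gene's sum, which in the transduced lines includes the vector's transcript. It was lower in PAR than in the 7 transduced lines other than KD by 1.42 ± 0.13 (SE, limma adjusted p = 0.0111), in a comparison that called 0.532% of genes, while the median gene differed by -0.15. In KO it was lower than in those 7 lines by 1.12 ± 0.13 (SE), which did not pass over all genes (limma adjusted p = 0.331). That comparison, with a lone line set against 7, called 0 genes, while 612 had an unadjusted p under 0.05.

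The deposited values are per transcript, and the AXL transcripts did not move together. AXL-201 (4737 nt) is the form with the longest sequence after the coding part, 1865 nt, against 393 nt in AXL-202 and 303 nt in AXL-203, and AXL-205 is a transcript with a retained intron. What the vector held outside the coding sequence is not given in the sources used here. AXL-203 begins at chr19:41226755, inside an intron of AXL-201, and RefSeq places a second AXL start there. The 250 bases of the gene before both AXL starts are shown. Capitals mark the GC box GGGCGG (AXL first start) or the TEAD motif GGAATG (second start) of either strand. Use of these starts in the lines was not tested.

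AXL first start, GRCh38.p14 chr19:41218973-41219222: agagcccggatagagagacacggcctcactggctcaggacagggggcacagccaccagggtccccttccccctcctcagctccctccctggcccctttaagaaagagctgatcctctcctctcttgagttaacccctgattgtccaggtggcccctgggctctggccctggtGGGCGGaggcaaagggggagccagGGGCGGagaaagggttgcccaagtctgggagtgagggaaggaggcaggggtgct
AXL second start, GRCh38.p14 chr19:41226505-41226754: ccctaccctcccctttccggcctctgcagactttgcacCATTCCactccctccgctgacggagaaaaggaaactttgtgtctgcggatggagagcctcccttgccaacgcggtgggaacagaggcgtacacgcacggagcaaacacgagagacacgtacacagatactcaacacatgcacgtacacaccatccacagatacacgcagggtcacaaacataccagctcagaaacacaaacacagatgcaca

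In these RefSeq windows the first start held 2 GC boxes and the second 1 TEAD motif. Neither held the AP-1 motif TGANTCA. Of 35116 RefSeq windows of this length, 42.6% held a GC box, 11.9% a TEAD motif and 6.57% an AP-1 motif, on either strand.

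AXL-201 was 139 TPM in untreated PAR, 41.8 TPM in untreated KO and 47.6 to 60.5 TPM in the untreated transduced lines. With E it was 115 TPM in PAR, 39.6 TPM in KO and 43.9 to 52.1 TPM in the transduced lines. It was lower with E in 8 of 10 lines, WT among them at 47.6 and 43.9 TPM, and higher in KD and, by 0.0073, in Y821F. The change of AXL-201 was -0.28 in PAR and -0.076 in KO. Both lay within the range of the 7 transduced lines other than KD, -0.42 to 0.0073. The difference in the change with E between lines was not tested on this transcript. Put in place of the gene's sum, a choice made after the values were seen, AXL-201 fell by 0.15 ± 0.047 (SE, limma adjusted p = 0.0113), the reverse of the sum.

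The summed TPM of AXL-203 and AXL-205 behaved differently. It was 23.6 TPM in PAR and 12.3 TPM in KO untreated, and 89.8 to 245 TPM in the untreated transduced lines. With E it was 11.1 TPM in PAR, 12.8 TPM in KO and 216 to 614 TPM in the transduced lines, 2.25 to 2.95 times the untreated value of the same line. The transduced lines and the lines without a vector did not overlap in this sum, before or after E. AXL-202 was 186 TPM in PAR, 33.0 TPM in KO and 72.4 to 127 TPM in the transduced lines untreated, and with E it was lower in PAR (116 TPM) and KO (26.2 TPM) and higher in all 8 transduced lines.

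**Figure D2:**
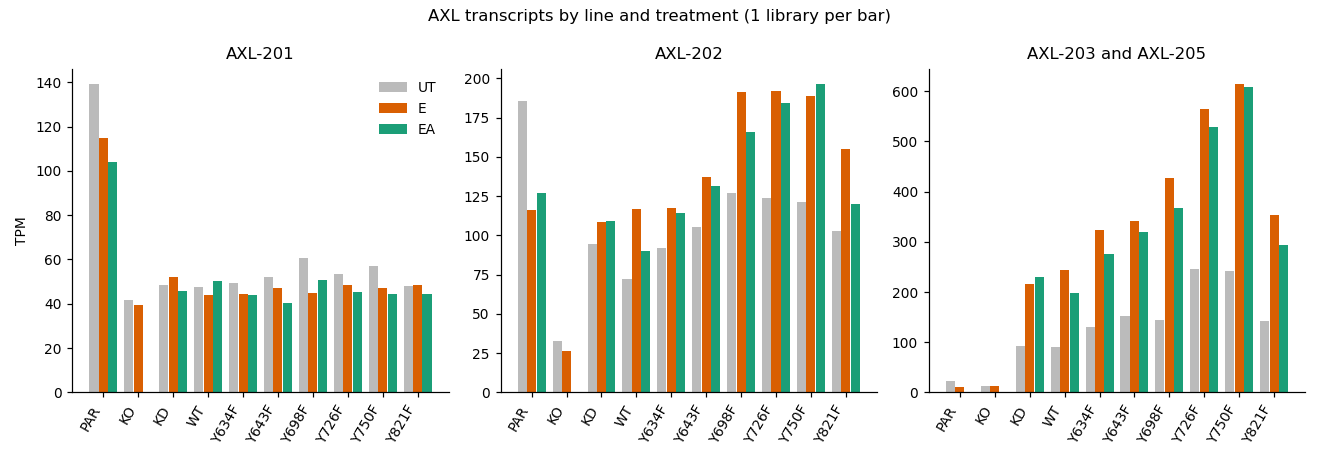
TPM of AXL-201, AXL-202 and the sum of AXL-203 and AXL-205 in each line (bars, 1 library each) for UT, E and EA, on axes that start at 0. AXL-201 is highest in PAR (139 TPM untreated) and the sum of AXL-203 and AXL-205 is at most 23.6 TPM in PAR and KO and at least 89.8 TPM in the transduced lines.

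TYRO3 (ENSG00000092445, chr15:41557675-41583586, plus strand), the second most abundant TAM receptor here, fell with E and was lower in every line. Untreated TYRO3 ranged from 16.8 TPM in Y698F to 23.1 TPM in PAR with a median of 20.04 TPM, and with E from 8.39 TPM in Y643F to 15.4 TPM in Y821F with a median of 13.6 TPM. The groups did not overlap, which held for 17.2% of all genes in this direction. KO, which went from 18.4 to 8.64 TPM, was the second lowest of the E libraries on the summed gene. The mean change was -0.59 ± 0.088 (SE, limma adjusted p = 3.76e-05), with ratios from 0.404 in Y643F to 0.802 in Y698F. TYRO3-202, its most abundant protein-coding transcript, changed from 8.88 ± 1.07 TPM to 5.01 ± 0.818 TPM (SD, n = 10 lines each) and was lower in 10 of 10 lines. With E this transcript was 4.41 TPM in KO, within the 3.78 to 6.33 TPM of the transduced lines.

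MERTK (ENSG00000153208, chr2:111898479-112029561, plus strand), the TAM receptor best known from phagocytes, stayed between 1.33 and 3.40 TPM in all 29 libraries. Its median was 2.55 TPM untreated and 1.995 TPM with E, and the groups overlapped. It was lower with E in 6 lines and higher in 4, among them KO (1.53 to 1.87 TPM) and KD (2.61 to 3.01 TPM). The mean change was -0.19 with a 95% interval from -0.42 to 0.039 (limma adjusted p = 0.125). With the transcripts annotated as protein coding alone it was -0.35 and was called (limma adjusted p = 0.00461).

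GAS6 (ENSG00000183087, chr13:113820549-113864067, minus strand), the ligand of all 3 receptors, rose with E and was higher in every line, least in PAR. In the 9 lines other than PAR it ranged from 30.6 to 41.0 TPM untreated with a median of 35.7 TPM, and from 58.2 to 76.1 TPM with E with a median of 66.9 TPM. PAR had 57.9 TPM untreated, above all other untreated lines, and 61.4 TPM with E, within the range of the others. The 10 E libraries all lay above the 10 UT libraries, as for 12.6% of genes in this direction. The mean change was 0.79 ± 0.074 (SE, limma adjusted p = 4.16e-07), with ratios from 1.06 in PAR to 2.11 in KO, where GAS6 went from 35.0 to 73.6 TPM.

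The change of GAS6 with E was smaller in PAR than in the 7 transduced lines other than KD by 0.78 ± 0.12 (SE, limma adjusted p = 0.0442). It was -0.57 and not called after the library medians were centred (limma adjusted p = 0.118), and it was not called without any 1 of those 7 lines (limma adjusted p = 0.0527 to 0.0850). The protein-coding GAS6 transcript (2490 nt), with 69.7% of the gene's TPM in untreated PAR and a median of 85.1% in the other untreated lines, was 40.3 TPM in untreated PAR and 54.3 TPM with E. The other lines went from 26.4 to 35.5 TPM untreated to 50.6 to 63.4 TPM with E, so PAR was highest untreated on this transcript too. The change of this transcript in PAR, 1.35 times, was larger than that of the summed gene, 1.06 times.

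The 250 bases before the GAS6 start are shown as the promoter of the more abundant ligand, which was higher with E in all 10 lines, with GC boxes in capitals. It held 3 GC boxes and neither of the other motifs. A GC box also lay before a start of each other member, and in 42.6% of all such windows. The only AP-1 motif among the members lay before a TYRO3 start.

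GAS6 start, GRCh38.p14 chr13:113864077-113864326, minus strand: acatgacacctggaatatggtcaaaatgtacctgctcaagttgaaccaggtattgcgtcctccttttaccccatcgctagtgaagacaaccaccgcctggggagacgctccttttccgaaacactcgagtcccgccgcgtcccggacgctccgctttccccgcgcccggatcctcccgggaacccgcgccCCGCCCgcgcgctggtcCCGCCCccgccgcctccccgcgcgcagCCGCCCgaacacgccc

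PROS1 (ENSG00000184500, chr3:93873033-93980003, minus strand), an anticoagulant plasma protein and TAM ligand, rose with E from a low level. In the 9 lines other than PAR it ranged from 0.837 to 1.75 TPM untreated with a median of 1.02 TPM and from 1.66 to 4.11 TPM with E with a median of 3.11 TPM. PAR was lowest under both, at 0.232 TPM untreated and 0.9997 TPM with E. In untreated PAR all of this TPM was on a transcript not annotated as protein coding (processed transcript, 3335 nt). With E that transcript held 36.4% of the TPM of PROS1 in PAR, and another of its class (642 nt) held 33.7%. In the other 9 lines the first had a median share of 39.4% untreated and 40.4% with E. The levels and ratios of PROS1 given here are of the summed gene, not of coding transcripts alone. E was higher in 10 of 10 lines, but in WT only from 1.56 to 1.66 TPM, and the groups overlapped. The mean change was 0.88 ± 0.12 (SE, limma adjusted p = 2.19e-05). The log2(TPM + 1) scale shrinks the change of so low a gene relative to its ratio of TPM. The ratios ran from 1.06 in WT to 4.30 in PAR, with a median of 3.04 in the 9 lines other than PAR. The ratio in PAR rests on an untreated value of 0.232 TPM, and the precision of values this low is unknown.

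**Figure D3:**
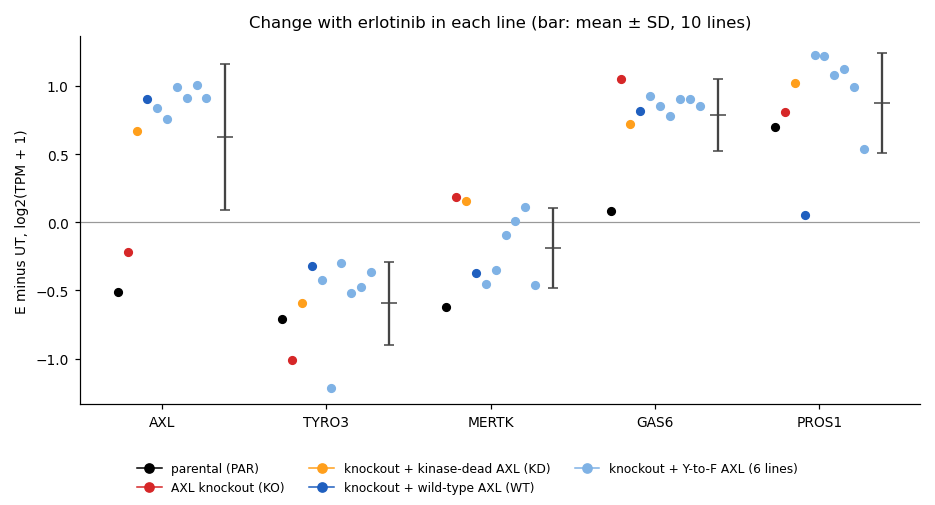
Change with erlotinib, E minus UT on the log2(TPM + 1) scale, for each member and line (points), with the mean ± SD over 10 lines (bars). GAS6 and PROS1 are above 0 and TYRO3 below 0 in all 10 lines, while AXL is below 0 in PAR and KO and above 0 in the 8 transduced lines.

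The second comparison set erlotinib with AF154 against erlotinib alone, in the 8 lines other than KO and KD, to ask whether activating AXL moved the members further. None of the 5 passed the test, in a comparison that called 67 genes or 0.475%. AXL was lower with EA in 8 of 8 lines, by a mean of 0.13 (95% interval of the change -0.21 to -0.062, limma adjusted p = 0.0883), from 569 ± 202 TPM to 523 ± 206 TPM (SD, n = 8 lines). The exact sign-flip permutation test of AXL alone gave p = 0.00781, two-sided and the smallest that 8 lines can give. On AXL-201 alone the change was -0.036, with 6 lines lower and 2 higher (limma adjusted p = 0.765). KD, outside the test, had 379 TPM under E alone and 386 TPM with the antibody added.

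GAS6 was lower with EA in 6 of 8 lines, at 62.8 ± 3.72 TPM where E alone gave 67.1 ± 6.73 TPM (SD over 8 lines). Its change of -0.091 was not called (limma adjusted p = 0.253), and the exact sign-flip permutation test of GAS6 alone gave p = 0.0312. On the protein-coding GAS6 transcript alone the change was -0.12, from 56.2 ± 4.56 TPM to 51.4 ± 2.97 TPM (SD over 8 lines). That transcript was lower with EA in 8 of 8 lines, among them PAR and Y750F, which were higher on the summed gene. The exact sign-flip permutation test of that transcript alone gave p = 0.00781. TYRO3 differed by -0.039 (95% interval -0.24 to 0.16), MERTK by 0.093 (-0.15 to 0.34) and PROS1 by -0.11 (-0.44 to 0.21). PROS1 in PAR was at 0.9997 TPM under E and at 0.193 TPM under EA, while in the 8 other lines with EA it lay between 2.55 and 4.14 TPM. The number of genes called in this comparison ranged from 0 to 38 when 1 line was left out, 0 of them without Y634F.

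Erlotinib with AF154 was also set against no treatment, in the same 8 lines and with the untreated libraries of the first comparison. AXL rose by 0.59 ± 0.14, GAS6 by 0.67 ± 0.081 and PROS1 by 0.75 ± 0.14, TYRO3 fell by 0.58 on the log2 scale ± 0.074 and MERTK differed by -0.18 ± 0.13 (SE, limma adjusted p = 0.00367, 2.22e-05, 0.000757, 3.66e-05 and 0.252), so 4 of 5 members were called where 62.7% of genes were. TYRO3 went from 19.7 ± 1.92 TPM to 12.9 ± 1.96 TPM and GAS6 from 39.6 ± 8.21 TPM to 62.8 ± 3.72 TPM (SD, n = 8 lines), without overlap between the groups, as for 15.7% of genes downward and 11.1% upward. On AXL-201 alone the direction of AXL turned, with a fall by 0.23 on the log2 scale (limma adjusted p = 0.00508), lower in 7 of 8 lines. MERTK was called lower without Y750F (-0.30, limma adjusted p = 0.0433). PAR was the line that went the other way in AXL (351 to 232 TPM) and PROS1 (0.232 to 0.193 TPM).

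The third question was whether TYRO3, MERTK, GAS6 or PROS1 stood at another level where AXL was lost. None of the 4 was called higher or lower in KO, against either the transduced or the parental cells. KO was 1 line, compared through the mean of its UT and E libraries and assumed to vary as the 7 transduced lines other than KD do. The same holds for PAR, which does not share the knockout parent of those lines, and for KD, so the p-values of KO against PAR rest wholly on the spread between the 7 lines and replicate neither line.

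AXL itself was lower in KO than in those 7 lines by 2.33 on the log2 scale ± 0.30 (SE, limma adjusted p = 0.0260) and lower than in PAR by 1.77 ± 0.40 (SE, limma adjusted p = 0.0191). Against PAR it was -1.91 in UT libraries and called (limma adjusted p = 0.0235) and -1.62 in E libraries and not called (limma adjusted p = 0.0597). The 7 lines are knockout cells to which AXL was added, so the direction of the difference from them was given by the design. KO still held 92.4 TPM of AXL transcript untreated, and a cut in the coding sequence need not remove the transcript, so this level says nothing of the receptor protein. The call against the 7 lines was lost without Y634F, Y643F, Y698F or Y821F (limma adjusted p = 0.0621 to 0.0837). Counted on AXL-201 alone, KO differed from the 7 transduced lines by -0.27 (limma adjusted p = 0.548).

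TYRO3 differed between KO and the 7 transduced lines by -0.30 (95% interval -0.60 to -0.0052, limma adjusted p = 0.675), MERTK by -0.25 (-0.69 to 0.18), GAS6 by 0.025 (-0.26 to 0.31) and PROS1 by -0.20 (-0.64 to 0.24). This comparison called 6 genes or 0.0425%. The highest of the 4 upper bounds was that of GAS6. Side by side with E, KO had 8.64 TPM of TYRO3 where the transduced lines had 8.39 to 15.4 TPM, and 73.6 TPM of GAS6 where they had 58.2 to 76.1 TPM.

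Against PAR, TYRO3 in KO differed by -0.46 (95% interval -0.85 to -0.068, limma adjusted p = 0.126), MERTK by -0.25 (-0.83 to 0.32), GAS6 by -0.23 (-0.61 to 0.16) and PROS1 by 0.73 (0.14 to 1.31, limma adjusted p = 0.109), where 10.4% of genes were called. Within UT libraries GAS6 differed by -0.71 and MERTK by -0.66, and within E libraries both changed sign, to 0.26 and 0.15, with none of these called (limma adjusted p = 0.0580, 0.257, 0.449 and 0.840). Between PAR and the 7 transduced lines PROS1 was lower in PAR by 0.93 ± 0.20 (SE, limma adjusted p = 0.00915), in a comparison that called 21.2% of genes. Taken within UT or within E libraries alone that difference was -0.83 and -1.02 and was not called (limma adjusted p = 0.0705 and 0.0513). AXL (-0.57), TYRO3 (0.16), MERTK (0.0010) and GAS6 (0.25) were not called between PAR and these lines. For AXL this depended on the libraries and the transcript, as it was 0.14 and not called in UT libraries (limma adjusted p = 0.790), -1.28 and called in E libraries (limma adjusted p = 0.0281), and 1.34, the other direction, and called on AXL-201 (limma adjusted p = 1.03e-05). In the untreated libraries alone GAS6 was higher in PAR by 0.64 (limma adjusted p = 0.0179), and in the E libraries alone it differed by -0.14 (limma adjusted p = 0.545).

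KD, the line with kinase-dead AXL, differed from the other 7 transduced lines by -0.54 in AXL, 0.077 in TYRO3, 0.24 in MERTK, -0.078 in GAS6 and -0.049 in PROS1 (limma adjusted p = 0.994 for each). This comparison called 0 genes with limma, while 520 had an unadjusted p under 0.05. The 95% intervals were -0.22 to 0.37 for TYRO3, -0.19 to 0.68 for MERTK, -0.37 to 0.21 for GAS6 and -0.49 to 0.39 for PROS1.

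**Figure D4:**
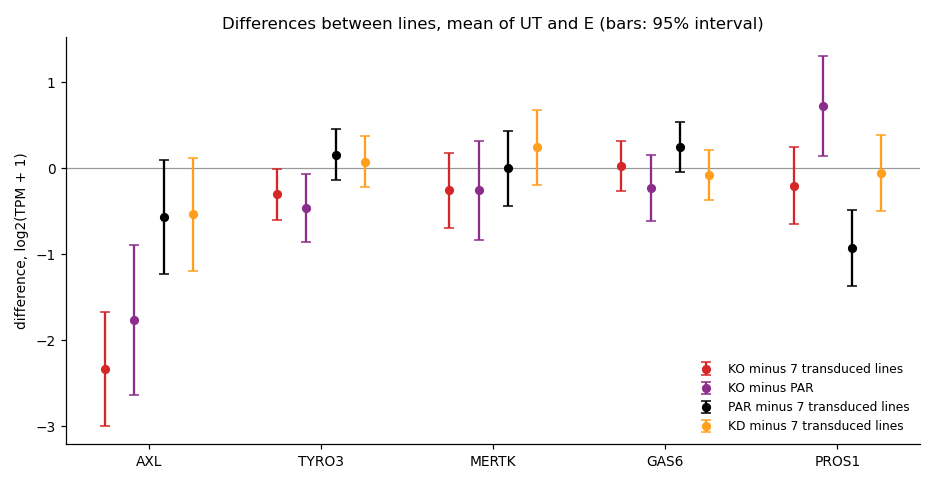
Differences between lines in each member on the log2(TPM + 1) scale, from the mean of UT and E libraries, with 95% intervals from limma (bars), for KO minus 7 transduced lines, KO minus PAR, PAR minus 7 transduced lines and KD minus 7 transduced lines. AXL lies well below 0 in both KO differences, and PROS1 is below 0 in PAR minus the 7 lines (-0.93).

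The transduced lines differed in AXL, from 311 TPM in WT to 674 TPM in Y750F over the mean of UT, E and EA, so that the other members could be set against it. Across the 8 transduced lines Pearson's r with AXL was 0.13 for TYRO3, 0.20 for MERTK, -0.59 for GAS6 and 0.094 for PROS1. Spearman's rho was 0.024, 0.071, -0.55 and 0.12 in that order. The exact permutation p was 0.786, 0.651, 0.128 and 0.827 for r and 0.977, 0.882, 0.171 and 0.793 for rho, and the smallest adjusted over the 4 relations was 0.511. GAS6 went from 59.3 TPM in Y634F to 47.2 TPM in Y750F, the line with most AXL. In the untreated libraries alone r for GAS6 was -0.71 and rho -0.71. The exact permutation p was 0.0477 for r and 0.0576 for rho (0.191 and 0.230 adjusted over the 4 relations). In the E libraries alone r was -0.41. Without Y726F and Y750F, the lines farthest from the median AXL level, r was -0.22 for GAS6, -0.37 for TYRO3, 0.28 for MERTK and 0.16 for PROS1. The lines share their knockout parent, and WT and KD, at 327 TPM of AXL or less, are the only ones without a Y-to-F change.

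**Figure D5:**
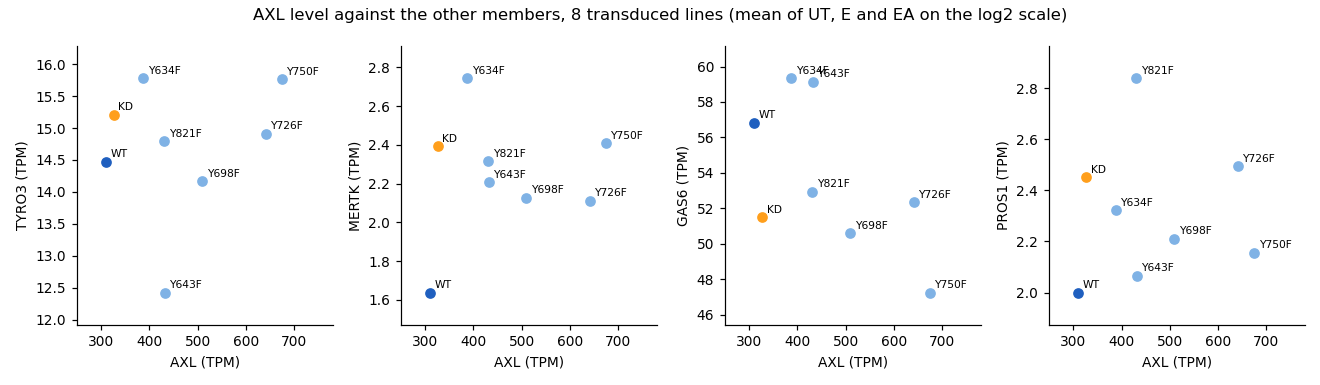
Level of TYRO3, MERTK, GAS6 and PROS1 against AXL in TPM for the 8 transduced lines (points, labelled), each level the mean of UT, E and EA taken on the log2 scale. GAS6 is lowest (47.2 TPM) in Y750F, the line with most AXL (674 TPM), and no relation of these means passed the exact permutation test.

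The genes whose profile over the 29 libraries was most like that of each member differed between members. For GAS6 they were OPN3, SKIL and MAPK8IP3 (Pearson's r = 0.96, 0.96 and 0.95), for PROS1 TRIM37, DHX40 and ZNF609 (0.94, 0.93 and 0.93) and for TYRO3 RPS6KA4, PLCB3 and DPM2 (each 0.90). AXL had lower likeness, with NEK6, TESK1 and ANAPC2 (0.78, 0.78 and 0.76), as had MERTK with PPM1F, ZDHHC16 and DYNLT4 (0.77, 0.62 and 0.61). Libraries of one treatment share the response to erlotinib, so these values are a description only. Among the members, r over the 29 libraries was 0.57 for GAS6 and PROS1, -0.75 for TYRO3 and GAS6 and -0.73 for TYRO3 and PROS1.

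The genes around the receptors were read from lists, beside the 71.8% of all genes called with E and a median change of all genes of 0.011. Of 6 genes of TAM shedding and turnover, 3 rose and 3 fell with E, with a median change of 0.065. CBLB, a ubiquitin ligase that marks receptor kinases for degradation, rose from 10.2 ± 2.33 TPM to 40.1 ± 6.02 TPM (SD, n = 10 lines), a change of 1.90 (limma adjusted p = 1.54e-10). ADAM10, a protease that sheds the AXL ectodomain, rose by 0.55, and TIMP1, an inhibitor of metalloproteases, fell by 0.72 on the log2 scale (limma adjusted p = 1.06e-08 and 2.23e-09). Each moved the same way in 10 of 10 lines.

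Of 6 genes of ligand maturation and the vitamin K cycle, 1 rose, 4 fell and 1 did not pass, with a median change of -0.44. VKORC1, the epoxide reductase that regenerates vitamin K, fell from 79.9 ± 3.34 TPM to 49.6 ± 5.38 TPM (SD, n = 10 lines), and CALU (calumenin), an inhibitor of the carboxylation, fell from 181 ± 21.5 TPM to 108 ± 16.5 TPM (SD, n = 10 lines). VKORC1L1, the paralog of VKORC1, fell by 0.51 on the log2 scale (limma adjusted p = 2.09e-06). GGCX, the carboxylase that modifies GAS6 and PROS1, was 27.7 ± 2.998 TPM untreated and 27.3 ± 1.51 TPM with E (SD, n = 10 lines, limma adjusted p = 0.814) and is named after its values were seen, as are NQO1, the gene that rose, and FURIN, the fourth that fell. CALU was also the list gene called with AF154 over E, by 0.18 (limma adjusted p = 0.0486) and in 8 of 8 lines, a call that was lost without Y634F, when 0 genes were called.

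Of 8 genes of phosphatidylserine exposure, 3 rose, 2 fell and 3 did not pass. PLSCR1, which is named after its values were seen, and ATP11B, a flippase, fell by 0.094 and by 0.21 on the log2 scale (limma adjusted p = 0.0441 and 0.0141). ANO6, a scramblase that moves phosphatidylserine to the cell surface, rose from 24.6 ± 2.27 TPM to 49.97 ± 5.07 TPM (SD, n = 10 lines, change 0.99, limma adjusted p = 6.99e-10) in 10 of 10 lines. PLSCR3 rose by 0.51 (limma adjusted p = 4.10e-06).

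Of 10 other receptors and ligands that bind phosphatidylserine or bridge to it, 7 were above the TPM minimum, of which 6 rose and 1 fell, with a median change of 0.98. LGALS3 (galectin-3), also described as a MERTK ligand, rose from 102 ± 10.2 TPM to 253 ± 22.8 TPM (SD, n = 10 lines) and MFGE8, a bridging protein read by integrins, from 47.3 ± 4.0004 TPM to 122 ± 19.2 TPM (SD, n = 10 lines). LRP1, a large endocytic receptor, rose by 1.07 (limma adjusted p = 2.44e-10). ITGB5, the integrin subunit that pairs with ITGAV, was the gene that fell, from 105 ± 6.09 TPM to 58.8 ± 7.502 TPM (SD, n = 10 lines), and is named after its values were seen.

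Of 21 adaptors and effectors of TAM receptors, 10 rose, 7 fell and 4 did not pass, with a median change of 0.098. GAB2, a docking adaptor, rose by 1.25 and GAB1 by 0.58, while SOCS3, an inhibitor of cytokine signalling, fell by 0.91 on the log2 scale (limma adjusted p = 1.06e-08, 0.000366 and 1.73e-06). Of 6 genes of the engulfment machinery, 2 rose, 2 fell and 2 did not pass. GULP1, an engulfment adaptor, rose from 25.5 ± 3.54 TPM to 67.7 ± 8.32 TPM and MYH9, the heavy chain of non-muscle myosin, from 597 ± 77.5 TPM to 1288 ± 46.0 TPM (SD, n = 10 lines each). ELMO1, part of an exchange factor for RAC1, fell by 0.69 on the log2 scale (limma adjusted p = 0.000735).

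Of 17 genes known to regulate AXL transcription or to move with it, 15 were above the minimum, of which 5 rose, 7 fell and 3 did not pass, with a median change of -0.14. FOSL1, a subunit of AP-1, fell from 223 ± 19.8 TPM to 18.3 ± 4.67 TPM (SD, n = 10 lines), a change of -3.58 (limma adjusted p = 1.71e-12). TEAD2, a DNA-binding partner of YAP, rose from 42.5 ± 2.55 TPM to 102 ± 4.597 TPM (SD, n = 10 lines), and SNAI2, a repressor of epithelial genes, rose by 1.05 (limma adjusted p = 9.64e-08). All 3 moved one way in 10 of 10 lines, PAR and KO among them.

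Over these 7 lists, 69 genes were above the minimum. None of them was called between KO and the 7 transduced lines, or between KD and those lines. Between KO and PAR 10 of the 69 (14.5%) were called, against 10.4% of all genes, from a spread that neither line contributed to. GAB2 was higher in KO by 1.33 (limma adjusted p = 0.00167), YAP1 higher by 0.64 (limma adjusted p = 0.00246) and RAC1 lower by 0.75 on the log2 scale (limma adjusted p = 0.00237). Between PAR and the 7 transduced lines 18 of the 69 (26.1%) were called, 7 higher and 11 lower in PAR, against 21.2% of all genes. GAB2 was lower in PAR by 1.07 ± 0.13, YAP1 lower by 0.59 ± 0.068, RAC1 higher by 0.67 ± 0.079 and VKORC1L1 higher by 0.66 ± 0.099 (SE, limma adjusted p = 0.000441, 0.000378, 0.000423 and 0.00155). The pseudogene models PROS2P and TYRO3P, which resemble members in sequence, were listed at 0 and at 0.26 TPM at most, and 4 antisense or divergent transcripts of GAS6 and MERTK were not analysed here.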

How the data were processed

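The authors estimated transcript abundance from poly(A) RNA libraries sequenced on an Illumina instrument, and the deposited table holds TPM for 188753 transcripts in 29 libraries. The submitters' processing notes name kallisto and GRCh38 without a version, and the annotation release is not given in the sources used here. Reads shared by near-identical transcripts are divided by estimation. TPM keeps no depth, so read counts per library are unknown and no counting interval is given.

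Transcripts were matched by identifier to GENCODE 29 (169797 matched, 97.0% to 97.3% of TPM) and summed to 35579 genes. Genes whose mean reached 1 TPM were tested on log2(TPM + 1) with limma 3.58.1 in R 4.3.3 (moderated, with Benjamini-Hochberg adjustment and a threshold of 0.05). Treatment fits had the line as a block. Comparisons of lines used the mean of UT and E, or their difference. Exact tests, correlations and figures used Python with scipy. The scripts were tested on simulated data. Groups came from the labels. Members and lists were chosen with earlier results of these data known. Named genes were the members, up to 3 called genes per list with the largest change, and the 3 genes most like each member. Motifs were searched on both strands of RefSeq promoter windows. Alternatives varied the pseudocount (0.1), the minimum (10 TPM or none), centring, the block, the transcripts and the lines. The knockout line with EA and protein sequences were not analysed here.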

Additional observations from a re-analysis of the deposited data

Results flagged for a closer look

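Among 30 sets of lines, each the levels of 1 member under 1 treatment or its changes in 1 comparison, 7 held a line far from the rest by Dixon's test, where chance gives about 1 set in 20. In 6 of the 7 that line was PAR and in none KO. GAS6 in untreated PAR was 57.9 TPM against 30.6 to 41.0 TPM in the other 9 lines. The change of GAS6 in PAR was 0.082 with E, against 0.72 to 1.05 in the others, and 0.092 with EA over untreated, against 0.57 to 0.92. AXL in PAR changed by -0.59 with EA over untreated, where the others changed by 0.64 to 1.003. PROS1 in PAR was 0.193 TPM with EA against 2.55 to 4.14 TPM, and its change from untreated was -0.047 against 0.59 to 1.05. These values for PAR share its untreated or its EA library, and the line has 1 library per treatment. The remaining set was the change of MERTK with EA over untreated, which was 0.61 in Y750F and -0.63 to -0.17 in the other lines.

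The response to E differed between PAR and the 7 transduced lines other than KD in 2 members by the test of the difference itself, AXL by -1.42 and GAS6 by -0.78 (limma adjusted p = 0.0111 and 0.0442). In AXL the transduced lines carry the vector's transcript, which was not separated from that of the gene, and its part in this difference was not tested. On AXL-201 alone the change in PAR, -0.28, lay within the -0.42 to 0.0073 of the 7 lines. For GAS6 the call was lost after the library medians were centred, and without any 1 of the 7 lines.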

How the results depend on the processing

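Each result was recomputed under other settings, of which the use of AXL-201 alone, of the 8 transduced lines and of the 7 without KD were chosen after seeing the data. The rise of GAS6 and PROS1 and the fall of TYRO3 with E kept their direction and call under every alternative run, and MERTK and PROS1 have no value at a minimum of 10 TPM. Depth is unknown, so the precision of the low values of MERTK and PROS1 is unknown too, and the lone lines KO, PAR and KD have no replicates. The cause of the changes below was not tested.

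AXL with E over untreated was not called without the line as a block (0.63), the 1 call among the 5 members that the block changed, and was -0.15 on AXL-201, as was EA over untreated at -0.23. With protein-coding transcripts MERTK with E was -0.35 and called, TYRO3 with EA over E 0.0024, and in KD TYRO3 was -0.11 and GAS6 0.020. By the exact sign-flip permutation test alone AXL (-0.13) and GAS6 (-0.091) passed for EA over E. The 67 genes called for EA over E became 214 at 10 TPM, 6 with no minimum, 32 centred, 3 without the block, 27 with KD and 34 without PAR.

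The 6 genes between KO and the 7 lines became 3 centred, 1 in UT libraries and 0 against all 8 transduced lines. AXL there lost its call when centred (-2.31), in UT libraries (-1.77), against all 8 lines (-2.27) and on AXL-201 (-0.27), and GAS6 was -0.071 in UT libraries. For KO against PAR, 1472 genes became 895 in UT and 788 in E libraries, where AXL was -1.62 and not called, MERTK 0.15 and GAS6 0.26. For PAR against the 7 lines AXL was 1.34 and called on AXL-201, 0.14 in UT libraries and -1.28 and called with E. In the same comparison MERTK was -0.0084 with a pseudocount of 0.1, -0.081 on protein-coding transcripts and -0.20 with E, GAS6 was 0.64 in UT libraries and -0.14 with E, and PROS1 -0.83 and -1.02. In KD, AXL was 0.028 on AXL-201 and PROS1 0.0078 centred and 0.017 with E.

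The 75 genes whose E response differed in PAR became 113 with a pseudocount of 0.1, 323 at 10 TPM and 28 centred, where TYRO3 was 0.012, PROS1 0.015 and GAS6 -0.57, and PROS1 was 0.43 with a pseudocount of 0.1. In UT libraries r with AXL was -0.71 for GAS6, -0.075 for TYRO3, -0.32 for MERTK and -0.19 for PROS1, and without the farthest 2 lines -0.37 for TYRO3.

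With 1 line left out, EA over E called 0 to 38 genes, KO against the 7 lines 1 to 7, KD 0 to 1, the E response 0 to 2 in KO and 26 to 79 in PAR. The members ranged from -0.092 to 0.030 for TYRO3 with EA over E, -0.30 to -0.12 for MERTK with EA over untreated, -2.43 to -2.26 for AXL and -0.014 to 0.050 for GAS6 in KO against the 7 lines, -0.045 to 0.038 for MERTK in PAR, and -0.79 to -0.77 for the E response of GAS6 in PAR.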
